A study of Homo sapiens with 21 samples.

Results

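The HOX genes encode homeodomain transcription factors and stand in 4 clusters, HOXA on chromosome 7, HOXB on chromosome 17, HOXC on chromosome 12 and HOXD on chromosome 2. Within a cluster the genes follow each other in the order in which they are switched on along the head-to-tail axis of the embryo, and genes with the same number in different clusters are paralogs. In adult epithelia, the breast included, the clusters are known to be held partly silent by Polycomb proteins, and nuclear receptors, foremost those for retinoic acid, are known to act on several of their genes. The 39 protein-coding HOXA, HOXB, HOXC and HOXD genes of GENCODE 44 were taken, of 20033 protein-coding genes in all, and every enriched region was collected whose summit lay between 50 kb before the first and 50 kb after the last gene of a cluster. Both choices rest on the annotation and use no measured value, but they were made with earlier results of these data known. These 4 windows held 7 of 26861 regions with estradiol, 2 of 10045 with LY500307 and 0 of 2905 with ethanol.

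The regions come from chromatin immunoprecipitation followed by sequencing (ChIP-seq) of ER-beta, the estrogen receptor that the ESR2 gene encodes, in a line labelled MDA-MB-231-ERb, which derives from MDA-MB-231, a triple-negative breast cancer cell line. All 3 groups carried a doxycycline-inducible ER-beta, were kept on 100 ng/ml doxycycline (24 h per the titles) and were precipitated through a Flag tag. They then differed in a 3 h treatment with ethanol vehicle, 1 nM estradiol or LY500307, a selective ER-beta agonist given at 1 nM per the sample titles and at 10 nM per the sample characteristics. The receptor in these cells is therefore an introduced, tagged copy, and whether the line is 1 clone is not stated in the labels. The labels name 4 ChIP and 3 input libraries for each treatment, while the protocol speaks of treatment in triplicate. The values below rest on 1 list of regions per treatment, read here as a pool of an unstated number of libraries. There is no replicate error, no difference between treatments or clusters was tested, and the sequencing depth is unknown. The fold is the authors' ratio of ChIP to local background for a region, scaled within each list, so folds of different treatments stand side by side and do not measure a change. Positions are hg38, counted from 1.

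Within the HOX clusters lay 4 estradiol summits, 0.765 per 100 kb, which was near the 0.87 over all chromosomes. There was 1 LY500307 summit, 0.191 per 100 kb against 0.325. From the outermost start to the outermost end of its genes, HOXA (11 genes, 27092993 to 27200091 on chromosome 7) held 1 estradiol summit, HOXC (9 genes, 53938831 to 54056030 on chromosome 12) held 1, HOXD (9 genes, 176092721 to 176190907 on chromosome 2) held 2 and HOXB (10 genes, 48528526 to 48728750 on chromosome 17) held 0. The LY500307 list had 1 summit within HOXA and 0 within the other clusters. In the 4 windows together, 922.7 kb long, the density was 0.759 estradiol regions per 100 kb, against 0.87 over all chromosomes. With LY500307 it was 0.217 against 0.325, and with ethanol 0 against 0.0941. The latter 2 densities rest on 2 and 0 regions, too few to set apart from those over all chromosomes. Gene starts were dense in the same windows, with 4.88 protein-coding gene starts per 100 kb against 0.649 over all chromosomes.

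**Figure D1:**
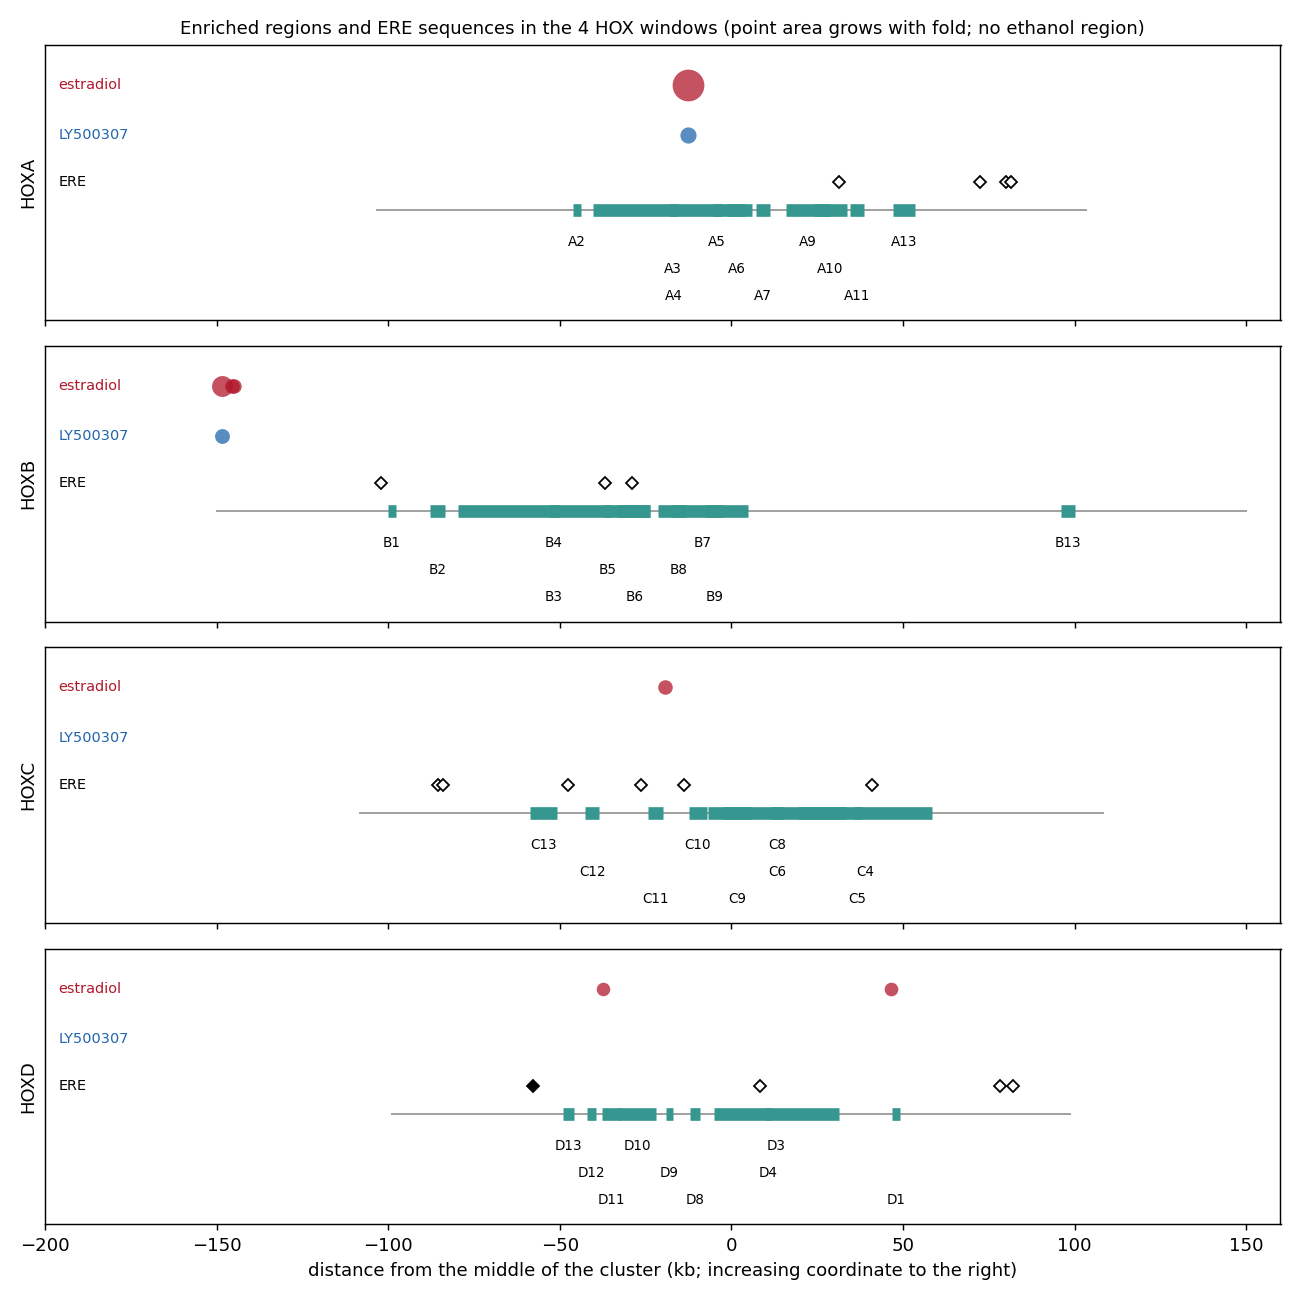
Each panel shows 1 HOX window on a common scale, as distance in kb from the middle of the cluster, with genes of the cluster as green bars (labels without the prefix HOX). Circles mark estradiol and LY500307 summits, with an area that grows with fold, and diamonds mark ERE sequences in the genome (filled, no mismatch; open, 1 mismatch). The 7 estradiol circles lie at 1 place in HOXA, at the left end of the HOXB window, at 1 place in HOXC and at 2 places in HOXD, and none of the 17 diamonds lies under a circle.

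The sequences under the summits are shown for the highest region of the HOXA and HOXC windows and for both HOXD regions, which are the estradiol sites inside the clusters. The HOXB regions, outside their cluster, are also described below but their sequences are not shown. Each run is 151 bases of the hg38 plus strand, centred on the estradiol summit. Capitals mark AGGTCA, the arm of the estrogen response element (ERE), on either strand; in HOXA also a direct repeat of it with 5 bases between the copies, with 1 mismatch; in HOXD11 also the AP-1 element TGANTCA; and in HOXD1 the SP1 element GGGCGG.
HOXA, near HOXA4 (chr7:27133870-27134020): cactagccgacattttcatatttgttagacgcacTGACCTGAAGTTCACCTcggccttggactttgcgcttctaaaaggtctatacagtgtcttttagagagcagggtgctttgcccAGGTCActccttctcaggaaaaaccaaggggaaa
HOXC, near HOXC11 (chr12:53978017-53978167): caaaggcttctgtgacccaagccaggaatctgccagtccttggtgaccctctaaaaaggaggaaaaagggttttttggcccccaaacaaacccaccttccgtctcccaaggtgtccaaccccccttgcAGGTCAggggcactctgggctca
HOXD, at HOXD11 (chr2:176104319-176104469): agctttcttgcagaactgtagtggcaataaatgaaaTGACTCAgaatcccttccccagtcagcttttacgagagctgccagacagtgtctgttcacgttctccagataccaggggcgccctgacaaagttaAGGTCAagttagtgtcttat
HOXD, before HOXD1 (chr2:176188278-176188428): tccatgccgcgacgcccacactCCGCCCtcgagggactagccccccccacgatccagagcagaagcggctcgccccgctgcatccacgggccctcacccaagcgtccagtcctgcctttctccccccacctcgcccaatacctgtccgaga

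The highest region of the 4 windows lay in the HOXA cluster, at chromosome 7, 27133748 to 27134143. With estradiol its fold was 48.24 and its -log10 q was 161, which placed it at rank 2369 of 26861 by fold, within the first 8.82% of the list. With LY500307 a region of 278 bp, wholly inside the estradiol region and with its summit 41 bp away, had a fold of 10.05 and rank 4157 of 10045 (first 41.4%). There was no ethanol region, and the nearest ethanol summits lay 924 kb before and 903 kb after the cluster. The site was thus in both ligand lists, high in the estradiol list and near the middle of the LY500307 list.

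The HOXA summit lay 3.17 kb from the nearest start of HOXA4, in intron 2 of the long transcript of HOXA3 and in intron 1 of the antisense RNA gene HOXA-AS3. HOXA3, which shapes the pharyngeal arches, had its nearest start 6.26 kb away. HOXA5, which is known to be silenced in many breast cancers, stood 8.83 kb away, and HOXA6 13.8 kb away. HOXA7 at 22.1 kb lay just outside the 20 kb used here to call a gene near a region. Towards the posterior end of the cluster the distance grew to 61.7 kb at HOXA13, a gene of digits and the urogenital tract. HOXA10 and HOXA11, which pattern the uterus, were 38.9 and 51.3 kb away.

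The sequence of the HOXA region held 2 copies of AGGTCA within 100 bp of the summit. At least 1 copy was present in 44.7% of all estradiol regions, so this alone was common in the list. The best ERE match within 100 bp of the summit had 3 mismatches, and the best over the whole estradiol region had 2. The direct repeat read AGGTGAacttcAGGTCA on the minus strand (27133904 to 27133920), with C5G as its departure from the repeat, counted from its first base, and its middle lay 33 bp from the estradiol summit and 8 bp from the LY500307 summit. Direct repeats of this spacing are known as elements of retinoic acid receptors. With at most 1 mismatch the repeat was present at 264 of 26861 estradiol summits (0.983%, 95% Wilson interval 0.872 to 1.11) and at 102 of 10045 LY500307 summits (1.02%, 0.837 to 1.23). With at most 2 mismatches it was at 6.7% of estradiol summits. A match is a description of the letters and not a measured binding of any receptor.

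The HOXB window differed in where its regions lay. All 3 estradiol summits stood between 44.8 and 48.2 kb outside the HOXB1 end of the cluster, in intergenic DNA between SKAP1, an adaptor gene of T cells, and the cluster. The highest, at chromosome 17, 48480140 to 48480477, had a fold of 19.0 and rank 6903 of 26861 (first 25.7%) with estradiol. With LY500307 the same site (48480194 to 48480431) had a fold of 7.973 and rank 5389 of 10045 (first 53.6%), with the summits 19 bp apart. Its summit was about as far from SKAP1 (50028 bp) as from HOXB1 (50.6 kb) and stood 1777 bp inside the edge of the window, so it counts by the choice of window. The other 2 regions (48483033 to 48483250 and 48483558 to 48483918) had estradiol folds of 7.697 and 7.307 and overlapped no LY500307 region. Just outside the window, the next estradiol summits lay 88.1 kb outside the HOXB1 end (fold 10.27) and 63.1 kb outside the HOXB13 end (fold 20.99).

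Between the last of these summits and the next beyond HOXB13, 308 kb held no estradiol summit. All 10 HOXB genes stood in this stretch. Of the distances between neighbouring estradiol summits over all chromosomes, 6.9% were at least as long, and their median was 26.8 kb. For the longest stretches at HOXA, HOXC and HOXD the shares were 9.71%, 10.4% and 21.7%. Each distance counts once in these shares whatever its length, and the longest stretch at a cluster was picked. The shares therefore do not measure how rare such a stretch is along the genome. Among the 10 HOXB genes, HOXB1, which defines a segment of the hindbrain, was 47.2 kb from an estradiol summit. HOXB4, known for expanding blood stem cells, was 94.6 kb away, and HOXB7, which is studied in breast cancer, 125 kb. HOXB9 at 143 kb was the most distant of the 39 HOX genes, and HOXB13, a prostate lineage gene, was 63.1 kb away. In the LY500307 list the matching stretch was 321 kb and in the ethanol list 1000 kb.

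The HOXC cluster had 1 estradiol region, at chromosome 12, 53977980 to 53978191, with a fold of 7.5 and rank 17193 of 26861. It lay in intergenic DNA 4.96 kb from the start of HOXC11 and 3.14 kb from a start of HOTAIR, an antisense RNA gene of this cluster that is known to act with Polycomb complexes and has been linked to breast cancer spread. HOXC10 was 6.97 kb, HOXC6 12.5 kb and HOXC9 16.8 kb away. HOXC12 (23.2 kb), HOXC8 (30.9 kb), HOXC4 (38.8 kb), HOXC13 (39.3 kb) and HOXC5 (55.0 kb) were farther. LY500307 had no region in this window, with the nearest summits 269 kb before and 314 kb after the cluster. The estradiol region had less than the median fold of its list, at 0.789 times the median.

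The HOXD cluster had 2 estradiol regions at its opposite ends, both low in their list. The region near HOXD11, a gene of the forearm skeleton (chromosome 2, 176104327 to 176104526), had a fold of 6.0 and rank 21704 of 26861 (first 80.8%). Its summit lay 178 bp from an annotated start of the gene and in an intron. It was outside the HOXD11 transcript that the annotation marks as canonical, so this start and intron belong to another transcript. HOXD10 (4.4 kb), HOXD12 (4.59 kb), HOXD13 (11.7 kb) and HOXD9 (18.3 kb) were within 20 kb of the same summit. The region before HOXD1 (176188263 to 176188496) had a fold of 6.22 and rank 21265 (first 79.2%). It lay in the promoter of HOXD1, 315 bp from the HOXD1 start. The same summit was in intron 1 of the antisense RNA gene HAGLR, 84 bp from an annotated HAGLR start. HOXD3 (24.3 kb), HOXD8 (25.3 kb) and HOXD4 (36.8 kb), in the middle of the cluster, were not within 20 kb of a summit. LY500307 and ethanol had no region in this window.

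**Figure D2:**
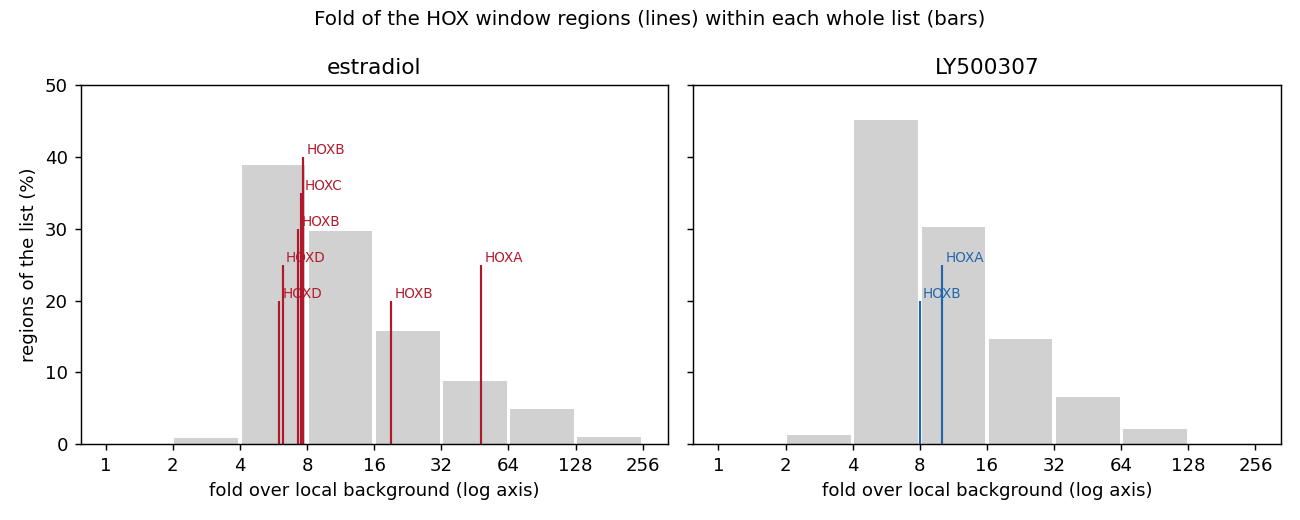
Bars give the percentage of all regions of a list in doublings of fold (log axis), and lines give the fold of each region in the HOX windows, named by cluster. The height of a line has no meaning. With estradiol 5 of the 7 lines stand at folds of 6.0 to 7.697, below the list median of 9.5, and the HOXA line stands at 48.24. With LY500307 the lines stand at 7.973 and 10.05, on either side of the list median of 8.46.

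Set against each other, the 4 windows had 0.483 (HOXA), 0.999 (HOXB), 0.46 (HOXC) and 1.01 (HOXD) estradiol regions per 100 kb, from 1, 3, 1 and 2 regions. These counts are too low to order the clusters. HOXA had the highest fold in both ligand lists and HOXD the lowest estradiol folds, and LY500307 regions were in the HOXA and HOXB windows. The median fold of the 7 estradiol regions was 7.5, against 9.5 over the list. The longest stretch without an estradiol summit that touched a cluster was 224 kb at HOXA, 308 kb at HOXB, 211 kb at HOXC and 102 kb at HOXD.

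Of the 39 HOX genes, 14 (35.9%) had an estradiol summit within 20 kb of a start, against 58.1% of all protein-coding genes. They were 4 of 11 HOXA, 0 of 10 HOXB, 4 of 9 HOXC and 6 of 9 HOXD genes. The 14 genes rest on 4 regions, because neighbours share a region, and so are not 14 independent observations. With LY500307 4 genes had a summit (10.3%, against 30.7% of all genes), and these were HOXA3, HOXA4, HOXA5 and HOXA6, near the region described above. With ethanol 0 had a summit, against 12.9% of all genes. At promoters, 1000 bp before to 100 bp after a start, 1 HOX gene (HOXD1) had an estradiol summit, against 23.9% of all genes, and 0 had an LY500307 summit, against 8.77%, or an ethanol summit, against 3.67%. The estradiol summit at HOXD11, 178 bp after an annotated start, fell just outside this span.

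The distances showed the same order at close range. Within 5 kb of a start, 6 HOX genes (15.4%) had an estradiol summit, against 43.5% of all genes. Within 50 kb the shares were 69.2% and 71.8%. Within 100 kb the order was reversed, with 87.2% of the HOX genes and 81.6% of all genes. The median distance to the nearest estradiol summit was 31.3 kb for the HOX genes and 10.6 kb for all genes. By cluster it was 31.3 kb for HOXA, 102 kb for HOXB, 23.2 kb for HOXC and 11.7 kb for HOXD. With ethanol the HOX genes lay 244 to 961 kb from a summit, with a median of 486 kb against 246 kb for all genes. No test is attached to these shares, which share regions and 1 pooled list.

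**Figure D3:**
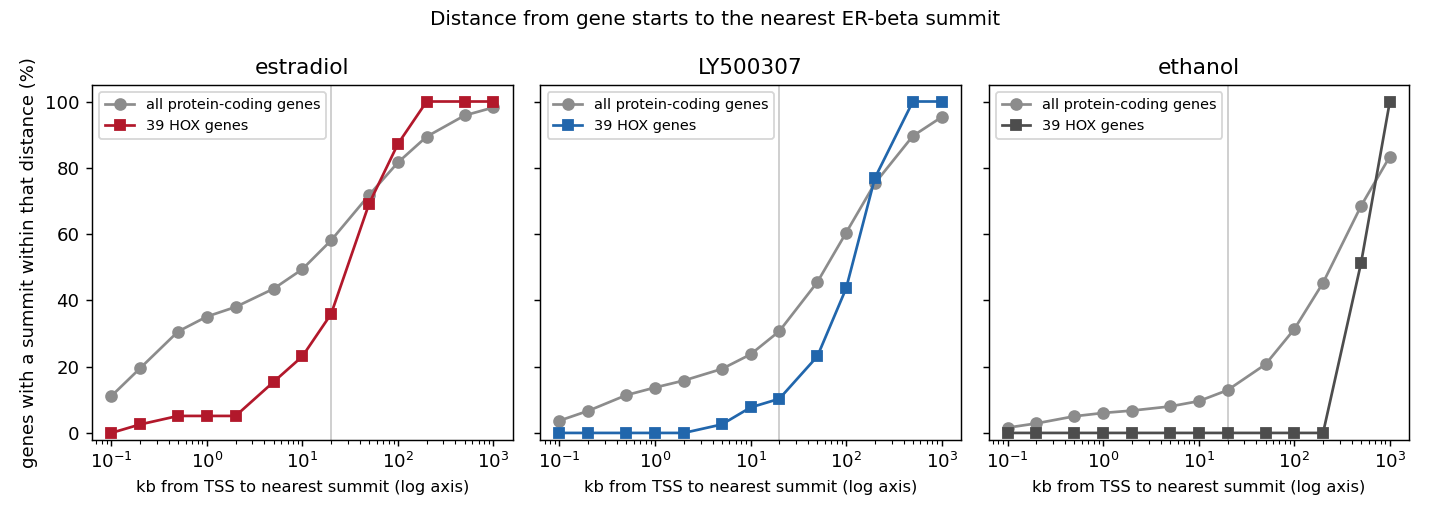
Each panel shows, for 1 treatment, the percentage of genes (vertical axis) with a summit within a given distance of a start (kb, log axis), for the 39 HOX genes in colour and for all protein-coding genes in grey. The vertical line is at 20 kb. With estradiol the HOX line is at 35.9% there and the line of all genes at 58.1%. The lines cross between 50 and 100 kb, and at 100 kb the HOX line is the higher, at 87.2% against 81.6%.

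**Figure D4:**
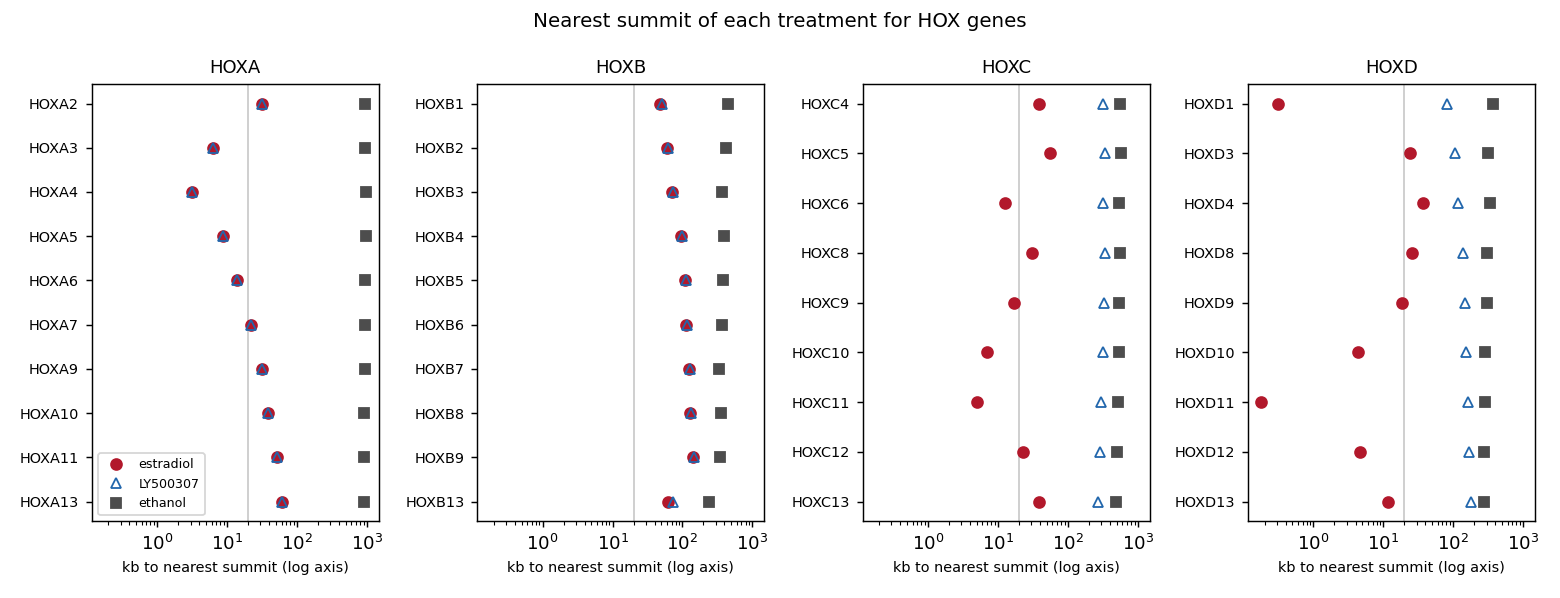
For HOX genes in paralog order, the distance in kb (log axis) from its nearest start to the nearest summit is shown for estradiol (filled circles), LY500307 (open triangles) and ethanol (squares), with a line at 20 kb. In HOXA and HOXB the estradiol and LY500307 marks nearly coincide. In HOXC and HOXD the estradiol marks lie at 55.0 kb or less and the LY500307 marks at 81.0 kb or more.

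By place along the axis, 3 of 12 anterior genes (paralog groups 1 to 4), 3 of 11 central genes (groups 5 to 8) and 8 of 16 posterior genes (groups 9 to 13) had an estradiol summit within 20 kb. The 8 posterior genes were HOXC9, HOXC10 and HOXC11, near the HOXC region, and HOXD9 to HOXD13, near the region at HOXD11. With LY500307 the counts were 2, 2 and 0. The shares over all protein-coding genes, 58.1% with estradiol and 30.7% with LY500307, lie above those of each of these groups. Within paralog group 4, HOXA4 was near an estradiol summit and HOXB4, HOXC4 and HOXD4 were not. In group 10, HOXC10 and HOXD10 were near one and HOXA10 was not. In group 8, HOXB8, HOXC8 and HOXD8 were not.

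Of the 7 estradiol regions, 2 (28.6%) overlapped an LY500307 region, against 33.8% of all estradiol regions, and 0 overlapped an ethanol region, against 9.26%. Both LY500307 regions overlapped an estradiol region, against 91.9% of that list, and 0 overlapped an ethanol region, against 22.9%. Both counts of 0 follow from the absence of ethanol regions in the windows and are not separate results. The 2 shared sites were the 2 with the highest estradiol folds in the windows.

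No HOX region held the ERE, the palindrome of GGTCA and TGACC with any 3 bases between them, with at most 1 mismatch in its 10 fixed bases within 100 bp of the summit. The count was 0 of 7 with estradiol (95% Wilson interval 0 to 35.4%, counting error only), against 13.8% of all estradiol regions, and 0 of 2 with LY500307, against 15.7%. With 2 mismatches allowed, 2 of the 7 estradiol regions held a match within 100 bp of the summit, against 44.6% of all. They were GGTATgtcTGACC, with C4A and A5T counted from its first base, 8 bp from the summit of the second HOXB region, and GGTCAtcaTGAAA, with C12A and C13A, 88 bp from the HOXC summit. The single arm AGGTCA was at 5 of 7 estradiol summits (71.4%, interval 35.9 to 91.8), against 44.7% of all. AP-1 elements were at 1 of 7, at HOXD11, against 17.5%, and SP1 elements at 1 of 7, at HOXD1, against 20.8%. TGATTNAT, a letter pattern bound by HOX proteins together with PBX, was at 0 of 7, against 2.81%. Base composition was close to that of the list, with a median of 53.2% G and C within 100 bp of the summit against 54.7%, and the region before HOXD1 stood highest at 67.7%.

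ERE sequences were present in the HOX windows but lay outside the regions. The 4 windows held 17 sequences with at most 1 mismatch, 1.84 per 100 kb against 2.04 over all chromosomes, of which 4 were in HOXA, 3 in HOXB, 6 in HOXC and 4 in HOXD. Over all chromosomes, 6.55% of 62891 such sequences lay in an estradiol region, 2.82% in an LY500307 region and 0.774% in an ethanol region. In the HOX windows 0 of 17 lay in a region of any list, a count too small to set apart from these shares. The windows held 1 intact copy, GGTCAAAATGACC, at chromosome 2, 176083940 to 176083952, 16 bp from a start of EVX2, the homeobox gene next to HOXD13. The nearest estradiol summit to it was the one at HOXD11, 20448 bp away. Of 2205 intact copies over all chromosomes, 20.6% lay in an estradiol region, and 1 copy cannot be set apart from this share. Within the clusters, the copies closest to a summit were GGCCACGGTGACC, 1.56 kb from HOXC10 and 5417 bp from the HOXC summit, and GGTCAGTGTGAAC, 2.06 kb from HOXC11 and 7027 bp from it.

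Genes that work with the HOX proteins were looked at beside them, from lists drawn up for this purpose. The PBX, MEIS and PKNOX genes encode homeodomain cofactors that bind DNA together with HOX proteins, and 5 of these 9 had an estradiol summit within 20 kb, 3 an LY500307 summit and 1 an ethanol summit. These counts are close to the shares of all protein-coding genes, which were 58.1%, 30.7% and 12.9%. The highest of these was at PKNOX2, in an intron, with a fold of 74.76 with estradiol (first 4.48% of the list) and 18.74 with LY500307. PBX4 had a region with an estradiol fold of 27.69 and an ERE with 1 mismatch, and a fold of 7.15 with LY500307. MEIS3 (fold 13.85) and PBX3 (fold 7.937) had estradiol regions at their promoters.

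Of 3 activators of HOX transcription, 3 had an estradiol, 1 an LY500307 and 2 an ethanol summit within 20 kb, against the same shares of all genes, and 3 genes are too few to set apart from them. DOT1L, which encodes the histone H3 lysine methyltransferase that works with KMT2A fusion proteins, had 7 estradiol, 5 LY500307 and 3 ethanol regions within 20 kb, with highest folds of 102.2, 30.56 and 7.806. The highest estradiol and LY500307 regions lay in an intron of DOT1L, 4.76 and 4.72 kb from a start. The highest ethanol region lay in the promoter of its neighbours PLEKHJ1 and SF3A2, and the nearest ethanol summit stood 4.72 kb from a DOT1L start. KMT2A and MEN1, which encode partners in a methyltransferase complex that keeps HOX genes on, had highest estradiol folds of 5.937 and 6.416, and KMT2A had an ethanol region with a fold of 5.304. KMT2A had 2 estradiol regions within 20 kb. The higher lay in the promoter of its neighbour TMEM25, and the nearest summit stood 0.055 kb from a KMT2A start. Of 8 related homeobox genes, EVX1, EVX2, GSX1, GSX2, PDX1, CDX1, CDX2 and CDX4, 1 (GSX2, fold 5.666) was within 20 kb of an estradiol summit, and 0 were near an LY500307 or ethanol summit, against 58.1%, 30.7% and 12.9% of all protein-coding genes. With estradiol, EVX2 (20.4 kb) and CDX1 (23.8 kb) lay just outside 20 kb and the rest farther. EVX1 and EVX2 stand beside HOX clusters, and GSX1, PDX1 and CDX2 stand near each other on chromosome 13. The 8 genes are therefore not independent observations.

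The non-coding genes of the clusters followed the same few regions. Of 12 long non-coding RNA genes 7 had an estradiol summit within 20 kb, against 38.5% of all 18866 such genes, and 2 (HOXA-AS2 and HOXA-AS3) an LY500307 summit, against 19.5%. With ethanol 0 had a summit, against 7.61%. The other 5 were HOTAIR, HOXC-AS2 and HOXC-AS3 in HOXC and HAGLR and HAGLROS in HOXD, whereas HOTTIP, HOTAIRM1, HOXB-AS1, HOXB-AS3 and HOXC-AS1 had none. Of the 6 microRNA genes of the clusters, MIR196A2 between HOXC9 and HOXC10 was 13.6 kb from the HOXC summit, and MIR10A, MIR10B, MIR196A1, MIR196B and MIR615 had no summit within 20 kb in any list. Over all microRNA genes the share was 40.8% with estradiol, 21.3% with LY500307 and 8.41% with ethanol.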

How the data were processed

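ChIP-seq of Flag-tagged ER-beta was represented by 3 deposited lists of regions, 1 per treatment. Per the submitters' processing notes, Bowtie2 2.2.6, MACS2 2.1.1.20160309, DiffBind and hg38 were used, without roles. The deposited ratio is the authors' fold over local background, the deposited -log10 values are their q values (the p values were not used), and the deposited score, a display value, was not used. The summit is region start plus the deposited offset. Regions outside the numbered chromosomes, X and Y were dropped, which left 2905 of 2911 ethanol, 26861 of 26896 estradiol and 10045 of 10059 LY500307 regions, and all ends lay within hg38 sequences. The lowest -log10 q was 2.02, 2.15 and 2.11 in the same order. Ranks are by fold, 1 being the highest. Genes and every annotated start came from GENCODE 44. Overlap meant at least 1 bp. Motifs were sought on both strands within 100 bp of the summit, without mismatch unless stated. An AGGTCA can be part of an ERE match or of the direct repeat. The rule named all 39 genes and all regions of the windows, and some items are not reported here. The genes, windows and lists were chosen with earlier results of these data known. Scripts used Python 3.11.15, numpy 2.4.6, pandas 2.3.3, scipy 1.17.1, pysam 0.24.0 and matplotlib 3.10.9, and the motif search was tested on simulated data.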

Additional observations from a re-analysis of the deposited data

How the results depend on the processing

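No paired analysis was possible because each treatment has 1 pooled list, and for the same reason no library could be left out. Of the alternative values, 23 moved by more than 1.5 times and 112 did not. The count of regions depended on the flank of the windows. With a flank of 20 kb, or with none, the estradiol count fell from 7 to 4 and the LY500307 count from 2 to 1, because the HOXB window then held 0 of both. With 100 kb the counts were 19 and 5: for estradiol 2 in HOXA, 11 in HOXB, 2 in HOXC and 4 in HOXD, and for LY500307 2 in HOXA, 2 in HOXB and 1 in HOXD. The ethanol count was 0 in every setting. Counting any overlap with the window, -log10 q of at least 5 or a fold of at least 5 changed none of the window counts. HOX genes near an estradiol summit numbered 6 within 5 kb and 27 within 50 kb, and near an LY500307 summit 1 and 9 (2.56% and 23.1%, against 19.3% and 45.5% of all genes). With starts of protein-coding transcripts alone, an alternative added after seeing the data, 14 and 4 genes remained in the count, against 55.2% and 28.1% of all genes. Allowing 2 mismatches gave an ERE within 100 bp of the summit at 2 estradiol regions. Over its whole length the HOXA region also held a match with 2 mismatches. Counting every annotated gene, the nearest gene of the 7 estradiol regions was a HOX gene in 2 cases, in place of 6, the others being non-coding genes. Depth is unknown, so a site without a region was not detected under the authors' threshold and is not shown to be free of receptor.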

Other observations

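The highest HOXB region lay in DNA that recurs in the genome. Of the 8 adjoining 25-base stretches within 100 bp of its summit, 3 occurred more than once on chromosomes 1 to 22, X and Y, the most frequent 264 times, and in the other 6 estradiol regions of the HOX windows all 8 occurred once. Of all estradiol regions, 81.4% had no repeated stretch and 10.8% had at least 3. How reads that fit several places were handled is not given in the sources used here, and the part of these copies in the HOXB region was not tested.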
